A study of Homo sapiens with 10 samples.

Results

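The nuclear-encoded subunits of the mitochondrial respiratory chain and of ATP synthase were followed in MEG-01, a cell line from a human megakaryoblastic leukemia, after transfection with a microRNA precursor. Members were the array genes whose current symbol starts with UQCR, COX4 to COX8 or ATP5, or is CYC1 or CYCS. Symbols that start with NDUFA, NDUFB, NDUFC, NDUFS or NDUFV counted where a digit follows, which leaves out NDUFAB1. A pseudogene (UQCRBP1), an antisense RNA (NDUFB2-AS1) and the NDUFAF assembly factors were left out. This gave 82 genes of the 35267 genes on the array, where a probe without a current symbol counted under its sequence identifier. Of the 82, 77 had a probe well above background and were tested, and all 77 were well above background on each of the 10 arrays. In all 17379 genes were tested, 11995 of them with a current symbol. The other 5 were the tissue-restricted isoforms COX4I2, COX6A2, COX7A1, COX7B2 and COX8C. The cells received 200 nM of miR-1225-3p precursor (n = 5 arrays) or 200 nM of scrambled control precursor (n = 5 arrays), and total RNA was taken 24 hours later. All 10 samples came from the same line, with no other treatment named, and were labelled as biological replicates. One field of the labels lists the scrambled cells as not treated while their titles name the transfection. Levels are log2 signals after cyclic loess normalization, a difference is miR-1225-3p minus scrambled, and a gene was called when its limma p-value, adjusted over all genes tested, was under 0.05.

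The respiratory chain passes electrons from NADH and succinate to oxygen through complexes I to IV, with ubiquinone and cytochrome c as mobile carriers, and pumps protons across the inner mitochondrial membrane. ATP synthase lets the protons flow back through its membrane ring and turns this flow into ATP. Platelets inherit mitochondria from megakaryocytes and use them for energy and during activation. A few subunits are encoded in mitochondrial DNA and were not analysed here. The nuclear genes described here encode most of the others, and their promoters are known for sites of the factors NRF1, GABPA (an ETS factor) and YY1. In bulk RNA, fewer cells and less RNA per cell cannot be told apart.

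The agent compared was the mature strand below, taken from the RefSeq table of build GRCh38.p14, where it lies at chr16:2090195-2090216 on the minus strand. The capitals mark its seed, bases 2 to 8, through which a microRNA pairs with its targets. Target sites in the members were not searched.
miR-1225-3p: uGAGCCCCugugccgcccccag

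Promoters of 67 of the 82 members were found in the RefSeq promoter table, each from 250 bases before to 50 bases after the start site. Those of 5 called members are shown, because they carry the largest rises (NDUFB6, ATP5PD), the largest falls among called members in the table (COX6B2, NDUFB11) or, in UQCRC1, the NRF1 letters that no other called member with a promoter in the table had. Capitals mark the searched letters on either strand: GCGCANGCGC for NRF1, CCGGAAG for GABPA, AAGATGGC for YY1, TCAAGGTCA for ESRRA and GGGCGG for SP1. A match is a run of letters and not a measured site.
NDUFB6 promoter, chr9:32573110-32573409, minus strand: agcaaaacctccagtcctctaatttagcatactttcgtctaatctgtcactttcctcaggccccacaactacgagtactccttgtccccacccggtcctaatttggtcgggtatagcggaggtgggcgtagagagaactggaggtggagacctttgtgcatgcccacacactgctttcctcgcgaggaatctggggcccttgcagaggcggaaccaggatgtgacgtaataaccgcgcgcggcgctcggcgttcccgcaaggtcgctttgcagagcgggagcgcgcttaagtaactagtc
ATP5PD promoter, chr17:75046920-75047219, minus strand: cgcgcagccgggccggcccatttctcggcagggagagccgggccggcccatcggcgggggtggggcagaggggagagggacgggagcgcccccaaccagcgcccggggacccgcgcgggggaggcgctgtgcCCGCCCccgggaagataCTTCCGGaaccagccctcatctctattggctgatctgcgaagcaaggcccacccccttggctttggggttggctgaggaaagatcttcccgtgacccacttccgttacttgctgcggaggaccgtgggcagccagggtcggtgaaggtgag
COX6B2 promoter, chr19:55354670-55354969, minus strand: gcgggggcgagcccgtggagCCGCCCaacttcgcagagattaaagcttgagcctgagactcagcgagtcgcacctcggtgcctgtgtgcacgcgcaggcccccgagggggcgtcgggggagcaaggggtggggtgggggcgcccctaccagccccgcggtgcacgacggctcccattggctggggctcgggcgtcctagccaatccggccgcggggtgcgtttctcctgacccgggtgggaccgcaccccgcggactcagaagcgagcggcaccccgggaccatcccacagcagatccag
NDUFB11 promoter, chrX:47144653-47144952, minus strand: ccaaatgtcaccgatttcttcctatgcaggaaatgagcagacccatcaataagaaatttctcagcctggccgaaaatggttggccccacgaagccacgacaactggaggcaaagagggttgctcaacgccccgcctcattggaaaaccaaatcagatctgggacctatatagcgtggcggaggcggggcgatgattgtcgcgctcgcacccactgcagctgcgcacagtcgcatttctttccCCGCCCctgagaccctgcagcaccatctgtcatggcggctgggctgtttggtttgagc
UQCRC1 promoter, chr3:48609597-48609896, minus strand: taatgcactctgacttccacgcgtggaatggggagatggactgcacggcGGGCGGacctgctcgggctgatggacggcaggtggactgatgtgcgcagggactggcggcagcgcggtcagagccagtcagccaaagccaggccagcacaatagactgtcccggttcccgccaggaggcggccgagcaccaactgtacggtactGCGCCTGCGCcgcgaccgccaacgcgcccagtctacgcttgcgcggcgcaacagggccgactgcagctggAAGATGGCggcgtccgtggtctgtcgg
The NDUFB6 window held none of these letters. The ATP5PD window held 1 GABPA and 1 SP1 match, and the COX6B2 and NDUFB11 windows held 1 SP1 match each. The UQCRC1 window held NRF1 letters starting 47 bases before the start site, YY1 letters starting at base 24 after it and 1 SP1 match. Over the 67 member promoters, 22.4% held the NRF1 letters, against 6.28% of all 27305 promoters of the same length. The GABPA letters were in 26.9% of member promoters against 10.7% of all, and the YY1 letters in 14.9% against 3.03%. At least 1 of these 3 runs was in 36 of 67 member promoters (53.7%), against 17.9% of all. The ESRRA letters were in 0 of 67 and in 0.359% of all, and the SP1 letters, which occur in many promoters, were in 61.2% against 44.6%. Among the called members in the table, the NRF1 letters were in 0 of the 6 that were higher and in 1 of the 4 that were lower, and the YY1 letters in 2 of 6 (ATP5PB and NDUFS4) and 1 of 4.

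**Figure D1:**
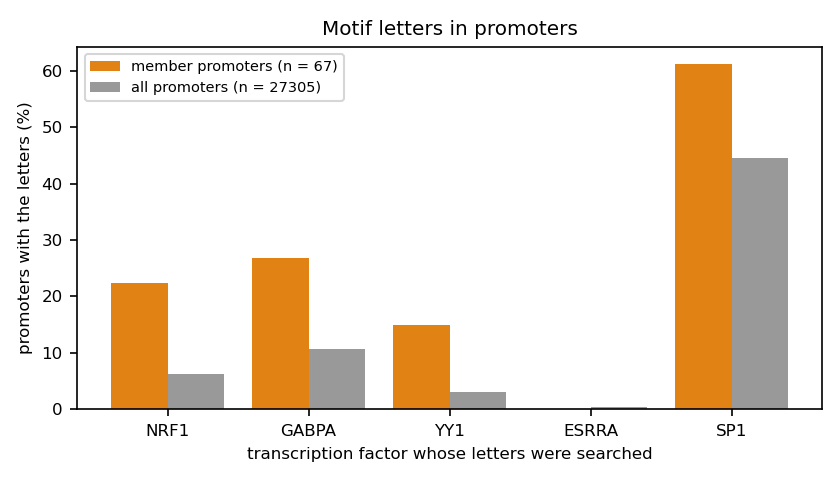
Share of promoters, in percent, that hold the searched letters of 5 transcription factors, for the members (orange, n = 67) and for all promoters of the RefSeq table (grey, n = 27305). The NRF1, GABPA and YY1 letters are at 22.4%, 26.9% and 14.9% in the members and at 6.28%, 10.7% and 3.03% in all promoters.

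Signals were well above background at 41.95% to 61.18% of the spots of an array, no spot was saturated, and the number of arrays limits the precision. On the first principal component of all genes (69.6% of the variance) the score of miR-1225-3p replicate 5 was 56.74, within the range of the scrambled group (48.65 to 79.87) and apart from the other miR-1225-3p arrays (-133.4 to -52.98). Counts of calls are therefore given with and without it. Of all genes tested, 35% were called with it and 55.1% without it. The arrays lay on 2 slides that each held both groups. Of 8 megakaryocyte markers, 7 were tested, all at a lower mean after miR-1225-3p, and 3 were called (ITGA2B, FLI1 and NFE2), while PF4 was not well above background on any array. Their summed signal was 6990 to 8710 on the miR-1225-3p arrays and 10200 to 11900 on the scrambled arrays. With each array centred on its 75th percentile, NFE2 and TAL1 had differences of 0.13 and 0.21 and 1 of the 7 markers was called lower, and after quantile normalization or with no scaling limma called 0 (5 and 3 at an unadjusted p under 0.05), all 7 being below 0. Without replicate 5, 5 were called lower. Of 8 markers of other cells, 6 were tested and MPO, EPCAM and CD3E were called higher, CD3E being above background on 3 of 5 miR-1225-3p and 1 of 5 scrambled arrays. CD79A had a difference of -1.47 (adjusted p = 0.0627 by limma, and 0.0122 with -1.85 without replicate 5), COL1A1 of -0.75 (adjusted p = 0.236 by limma) and CD14 of 0.36 (adjusted p = 0.475 by limma). These 6 had a summed signal of 7140 to 8390 against 5540 to 10700. COL1A2 was not well above background on any array. The part of these shifts in the results below was not tested.

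After cyclic loess a smaller share of the subunits than of all genes was called, in both directions. Of 77 members tested, 15 were called (19.5%), against 35% of all genes tested. Of the 11478 tested protein-coding genes outside the members, 37.3% were called. The 8 higher members were NDUFB6, NDUFB8, NDUFB5, NDUFS4 and NDUFS5 of complex I and ATP5PD, ATP5IF1 and ATP5PB of ATP synthase, with differences of 0.44 to 0.59 (17% of all genes were called higher). The 7 lower members included COX6B2, ATP5F1D, NDUFB11, COX4I1, CYC1 and UQCRC1, with differences of -1.61 to -0.48 (18.1% of all genes were called lower). At an unadjusted p under 0.05 there were 27 of the 77 members, against 8533 of the 17379 genes tested. A change of more than 2-fold in a called gene was found in 4 members, all lower, COX6B2, ATP5F1D and NDUFB11 among them, or 5.19% of those tested, against 17.4% of all genes. The median difference of the members was 0.0483 and that of all genes -0.0602, and the median size of the difference was 0.273 against 0.506. Members were also measured with less spread, with a median SD over the scrambled arrays of 0.123 against 0.249 over all genes. Over the other protein-coding genes the median difference was -0.0383, its median size 0.491 and the median scrambled SD 0.208. The 5 arrays of one group all lay beyond the 5 of the other for 12 members (15.6%), against 12.7% of all genes. Of these 12, 11 were higher after miR-1225-3p (7.98% of all genes were separated this way) and 1, UQCRC1, was lower (4.74% of all genes).

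**Figure D2:**
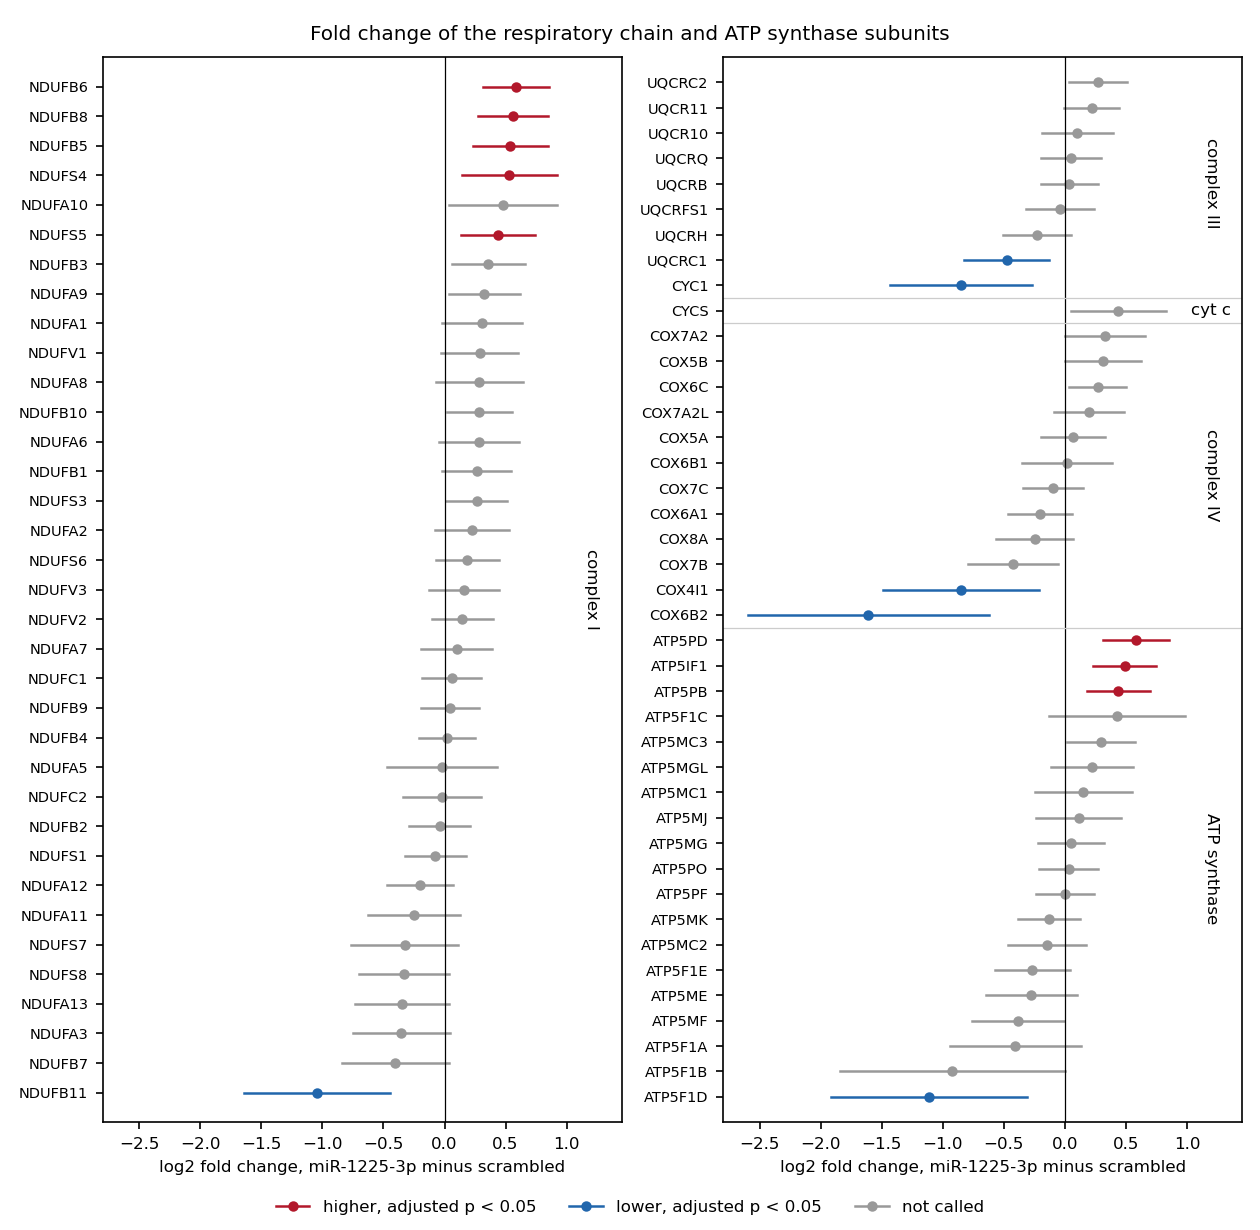
Difference in log2 signal, miR-1225-3p minus scrambled, of 76 of the 77 tested members, ordered within each complex, with 95% confidence intervals from limma (n = 5 arrays per group). Called members are red (8 higher) or blue (6 lower), and the falls reach -1.61 while no rise exceeds 0.59.

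The balance of higher and lower calls depended on how arrays were scaled to each other, while the members' median stayed above 0 and above that of all genes under the 4 scalings tried. After cyclic loess, the normalization of the study's methods, 8 members were called higher and 7 lower. After quantile normalization there were 15 higher and 5 lower (26% of members called, against 35.4% of all genes). With each array centred on its 75th percentile there were 49 higher and 1 lower (64.9% against 41.1%), and with no scaling 0 higher and 1 lower (1.3% against 7.28%). Of the calls over all genes, 48.4% were higher after cyclic loess, 59.2% after quantile, 63.8% with the 75th percentile and 13.7% with no scaling. The median of the members was 0.0483, 0.22, 0.665 and 0.242 in that order, and that of all genes was -0.0602, 0.0756, 0.159 and -0.264. Relative to all genes the members' median was thus 0.109, 0.144, 0.506 and 0.506 higher. The members are bright on these arrays: 60 of 77 were in the brightest 10% of the genes tested. The 1678 other genes of that class had medians of -0.0655, 0.0793, 0.564 and 0.141 under the same scalings, and 32.8%, 32.9%, 56.8% and 9.18% of them were called. All 8 members called higher were above 0 under all 4 scalings, but so was every member above 0 after cyclic loess, called or not. Of the 7 called lower, 6 were below 0 under all 4, and UQCRC1 was at 0.03 with the 75th percentile. COX6B2 was called lower under each of the 4 scalings. In all, 45 members were above 0 and 7 below 0 under all 4, against 45 above and 32 below 0 after cyclic loess.

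**Figure D3:**
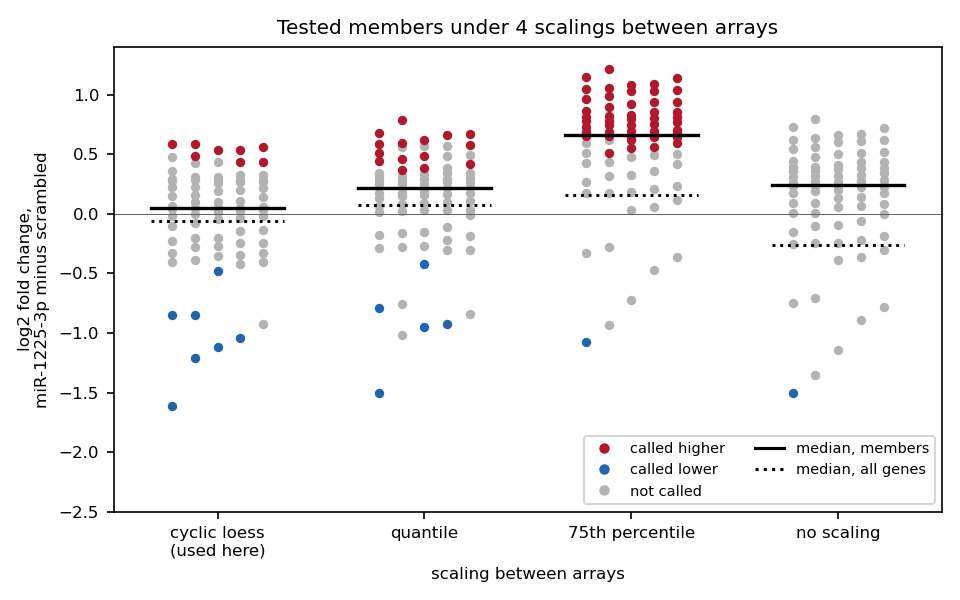
Difference in log2 signal, miR-1225-3p minus scrambled, of the 77 members under 4 scalings between arrays, with called members in red (higher) or blue (lower) and the medians of the members (solid) and of all genes tested (dotted). The members' median lies at 0.0483 after cyclic loess and at 0.665 with the 75th percentile, and 1 blue point, COX6B2, is present in all 4 columns.

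Complex I, the NADH dehydrogenase, had 36 tested members, of which 5 were called higher and 2 lower (19.4%, against 35% of all genes). The median difference of the 36 was 0.152. Among the core subunits, which carry the flavin and the iron-sulfur clusters, the subunit that binds NADH and the flavin, NDUFV1, had a difference of 0.29 (adjusted p = 0.131 by limma), and the iron-sulfur subunit NDUFS1 of -0.08 (adjusted p = 0.604 by limma).

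The accessory subunits surround this core. Of the 11 NDUFB genes, which encode parts of the membrane arm, 3 were called higher and 1 lower (36.4%, near the 35% of all genes). Without replicate 5, 7 of the 11 were called, 5 higher and 2 lower, against 55.1% of all genes. NDUFB6 read 11.44, 11.30, 11.53, 11.43 and 11.12 on the miR-1225-3p arrays and 10.75, 10.90, 10.80, 10.77 and 10.67 on the scrambled arrays. The groups did not overlap, and replicate 5 was the lowest of its group. The difference was 0.59 (SE 0.121, adjusted p = 0.0141 by limma), and the exact permutation p was 0.00794, the smallest that 5 against 5 arrays can give. NDUFB8 read 13.39, 13.48, 13.70, 13.55 and 13.15 against 12.95, 12.89, 12.84, 12.97 and 12.82, a difference of 0.56 (SE 0.129, adjusted p = 0.0160 by limma). NDUFB5 read 12.08, 11.98, 12.11, 12.03 and 11.54 against 11.29, 11.37, 11.46, 11.43 and 11.52, a difference of 0.54 (SE 0.138, adjusted p = 0.0206 by limma). Neither gene's groups overlapped, although NDUFB5 in replicate 5 was only just above the scrambled arrays. A second probe gave 0.22 for NDUFB8 (adjusted p = 0.452 by limma) and 0.10 for NDUFB5 (adjusted p = 0.748 by limma), so the probes of both genes differ in their call. NDUFB11, an X-linked subunit of the same arm, read 12.79, 12.32, 12.26, 12.16 and 13.50 against 14.09, 13.81, 13.61, 13.48 and 13.27. Here replicates 1 to 4 lay below all scrambled arrays and replicate 5 within them, with a difference of -1.05 (SE 0.271, adjusted p = 0.0209 by limma).

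Of the 6 other accessory subunits of the NDUFC, NDUFS and NDUFV series, NDUFS4 and NDUFS5 were called higher (33.3%, against 35% of all genes). Without replicate 5 the same 2 were called. NDUFS4, a subunit of the matrix arm whose loss causes Leigh syndrome, read 12.73, 12.94, 13.00, 13.21 and 12.24 against 12.23, 12.26, 12.30, 12.38 and 12.29. NDUFS5 read 16.29, 16.24, 16.22, 16.37 and 15.80 against 15.62, 15.65, 15.82, 15.80 and 15.85. In both genes replicates 1 to 4 lay above all scrambled arrays and replicate 5 did not, and the differences were 0.53 (SE 0.176, adjusted p = 0.0409 by limma) and 0.44 (SE 0.137, adjusted p = 0.0346 by limma). None of the 12 NDUFA subunits was called by limma, with differences of -0.36 to 0.48, and 2 had an unadjusted p under 0.05. Without miR-1225-3p replicate 5, 7 of the 12 were called, 6 higher and 1 lower, and in complex I as a whole 18 of 36, 14 higher and 4 lower. Both shares are near the 55.1% of all genes called in that fit.

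**Figure D4:**
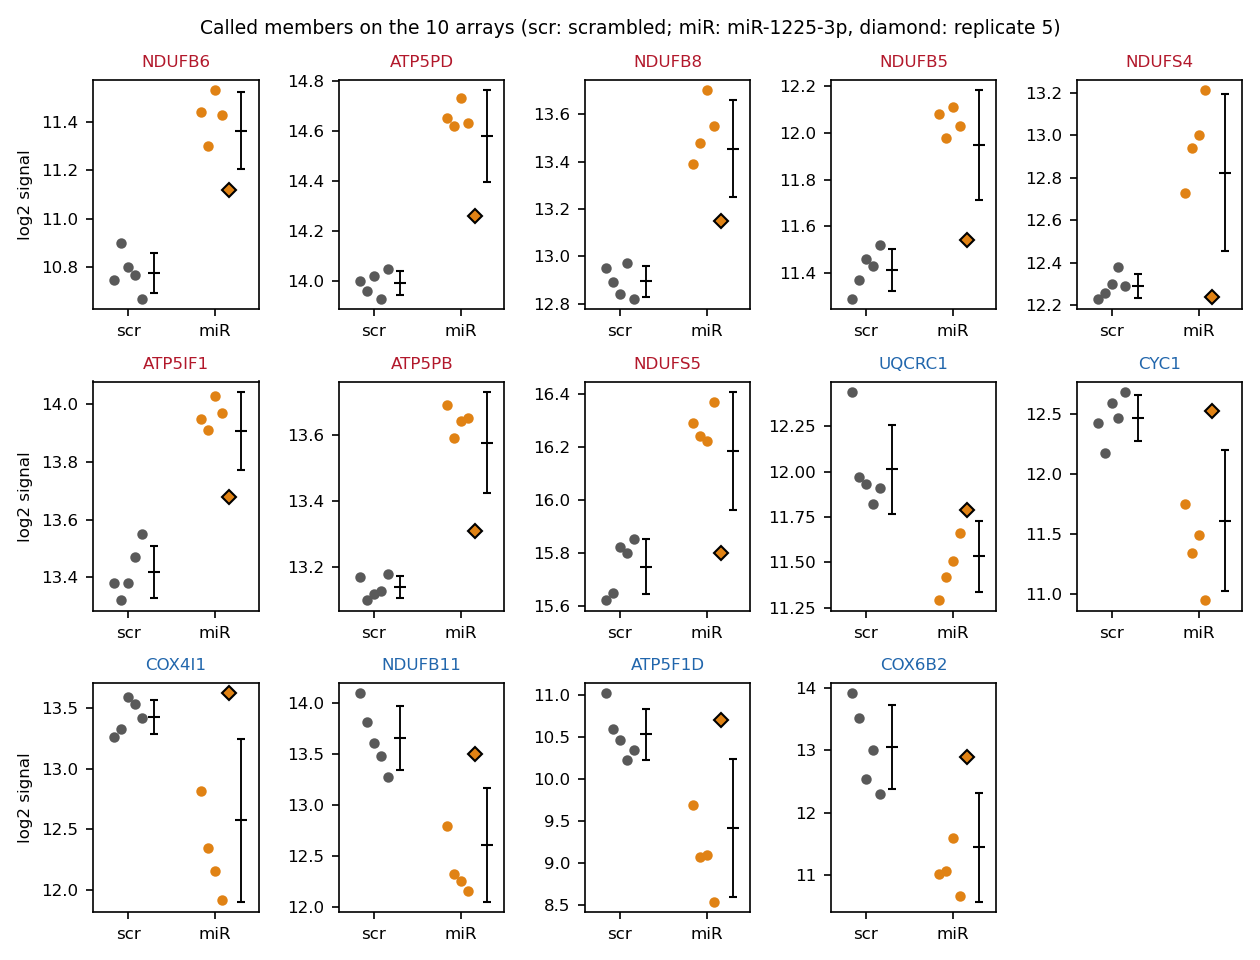
Log2 signal of 14 of the 15 called members on each array, scrambled in grey and miR-1225-3p in orange with replicate 5 as a diamond, and the mean and SD of each group beside the points (n = 5, each panel with its own axis). Gene names are red for higher and blue for lower members, and in all 14 panels replicate 5 is the miR-1225-3p array nearest to the scrambled mean.

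Complex III passes electrons from ubiquinol to cytochrome c. Of its 9 tested members, 2 were called (22.2%), both lower, against 35% of all genes called and 18.1% called lower. Without replicate 5, 3 were called, 1 higher and 2 lower, against 55.1% of all genes. CYC1, which encodes the heme-bearing cytochrome c1, read 11.75, 11.34, 11.49, 10.95 and 12.52 against 12.42, 12.17, 12.59, 12.46 and 12.68. Only replicate 5 reached the scrambled range, and the difference was -0.85 (SE 0.262, adjusted p = 0.0330 by limma). UQCRC1, a core protein related to mitochondrial processing peptidases, read 11.29, 11.42, 11.51, 11.66 and 11.79 against 12.44, 11.97, 11.93, 11.82 and 11.91. The groups did not overlap, with 0.03 between replicate 5 and the lowest scrambled array, and the difference was -0.48 (SE 0.158, adjusted p = 0.0404 by limma). The companion core protein UQCRC2 had a difference of 0.27 with groups that did not overlap either (adjusted p = 0.0685 by limma). The Rieske iron-sulfur protein UQCRFS1 had a difference of -0.04 (adjusted p = 0.818 by limma). Cytochrome c itself (CYCS), which also takes part in apoptosis, was not called on its brightest probe, with 0.44 (adjusted p = 0.0734 by limma). Its other probes gave 0.44 (adjusted p = 0.0501 by limma) and 1.10 (adjusted p = 0.0397 by limma).

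Complex IV, cytochrome c oxidase, had 12 tested members, of which 2 were called (16.7%), both lower. Of all genes 35% were called and 18.1% called lower. Without replicate 5, 6 of the 12 were called, 3 higher and 3 lower, against 55.1% of all genes. COX6B2 is the isoform of subunit 6B best known from testis, and it had the largest fall of all members after cyclic loess. It read 11.01, 11.06, 11.59, 10.66 and 12.89 on the miR-1225-3p arrays and 13.91, 13.52, 12.54, 13.00 and 12.29 on the scrambled arrays. Replicates 1 to 4 lay below all scrambled arrays, and replicate 5 among them. The difference was -1.61 (SE 0.446, adjusted p = 0.0246 by limma, exact permutation p = 0.0238), a 3.05-fold fall. A second COX6B2 probe passed the background flag on 1 of 5 miR-1225-3p and 3 of 5 scrambled arrays and gave -0.23 (adjusted p = 0.579 by limma). The general isoform COX6B1 read 15.13, 14.97, 15.04, 14.73 and 14.92 against 15.42, 15.08, 14.78, 14.78 and 14.66, with groups that overlapped and a difference of 0.02 (95% interval -0.35 to 0.39).

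COX4I1, the general isoform of subunit 4 and an early subunit in the assembly of the complex, read 12.82, 12.35, 12.16, 11.92 and 13.62 against 13.26, 13.33, 13.59, 13.53 and 13.42. Replicate 5 was above every scrambled array and the other 4 were below them all, and the difference was -0.85 (SE 0.287, adjusted p = 0.0429 by limma). Its hypoxia-linked isoform COX4I2 was not well above background. Neither COX6A1 (-0.21), COX7A2 (0.33) nor COX8A (-0.25) was called by limma (adjusted p = 0.182, 0.103 and 0.186 in that order), and their muscle or testis isoforms COX6A2, COX7A1 and COX8C were not well above background in these cells. COX7A2L, which helps to join complexes III and IV into supercomplexes, had a difference of 0.20 on its brightest probe (adjusted p = 0.236 by limma) and of -1.46 on a dimmer probe well above background on all arrays (adjusted p = 0.0171 by limma). NDUFA4, now listed as COXFA4 and therefore outside the count, had a difference of 0.03 (adjusted p = 0.83 by limma). NDUFA4L2, its hypoxia-induced relative now listed as COXFA4L2, had a difference of -1.74 (adjusted p = 0.0149 by limma) and rose above background on 1 of 5 miR-1225-3p and 5 of 5 scrambled arrays.

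ATP synthase had 19 tested members, of which 3 were called higher and 1 lower (21.1%, against 35% of all genes). Without replicate 5 it had 3 higher and 5 lower, while 55.1% of all genes were called. Of the 4 peripheral stalk subunits, which hold the catalytic head still, 2 were called higher, with and without replicate 5. Over all genes 35% were called with it and 55.1% without it. ATP5PD (subunit d) read 14.65, 14.62, 14.73, 14.63 and 14.26 against 14.00, 13.96, 14.02, 13.93 and 14.05, a difference of 0.58 (SE 0.123, adjusted p = 0.0142 by limma). ATP5PB (subunit b) read 13.69, 13.59, 13.64, 13.65 and 13.31 against 13.17, 13.10, 13.12, 13.13 and 13.18, a difference of 0.44 (SE 0.115, adjusted p = 0.0216 by limma). Neither gene's groups overlapped, and replicate 5 was the lowest of its group in both. The stalk subunits ATP5PO and ATP5PF had differences of 0.03 (adjusted p = 0.842 by limma) and -0.0031 (adjusted p = 0.982 by limma). ATP5IF1, the inhibitor that stops the enzyme from running backwards, read 13.95, 13.91, 14.03, 13.97 and 13.68 against 13.38, 13.32, 13.38, 13.47 and 13.55. Its groups did not overlap and the difference was 0.49 (SE 0.117, adjusted p = 0.0173 by limma), with 0.28 on a second probe (adjusted p = 0.0879 by limma).

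Of the 5 subunits of the F1 head and its central stalk, 1 was called, lower (20%, against 35% of all genes). Without replicate 5, 3 were called, all lower. The subunit called with all arrays was ATP5F1D (subunit delta of the central stalk). It read 9.69, 9.07, 9.09, 8.53 and 10.70 against 11.02, 10.60, 10.46, 10.22 and 10.35, again with replicates 1 to 4 below and replicate 5 among the scrambled arrays, and the difference was -1.11 (SE 0.362, adjusted p = 0.0388 by limma). The catalytic beta subunit ATP5F1B read 12.82, 12.29, 12.12, 10.88 and 13.58 against 13.21, 13.00, 13.36, 13.10 and 13.62. Its difference of -0.92 was not called (adjusted p = 0.102 by limma), but it was without replicate 5 (-1.23, adjusted p = 0.0135 by limma). The alpha subunit ATP5F1A had a difference of -0.41 (adjusted p = 0.201 by limma). None of the 3 c-ring and 6 small membrane subunits was called by limma, and 1 of each had an unadjusted p under 0.05. Without replicate 5, 0 of the 3 and 2 of the 6 were called, both lower.

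In all 15 called members replicate 5 was the miR-1225-3p array nearest to the scrambled mean. Averaged over the 8 members called higher, miR-1225-3p replicates 1 to 4 lay 0.549 to 0.661 above the mean of the scrambled arrays and replicate 5 lay 0.179 above it. Averaged over the 7 called lower, replicates 1 to 4 deviated from that mean by -1.55 to -0.989, and replicate 5 by -0.00493. The scrambled arrays deviated by -0.0373 to 0.031 and by -0.0861 to 0.171. These members were chosen by their call on the same arrays, so a gap between the groups is built into these averages. Without replicate 5, 35 of 77 members were called (45.5%), 21 higher and 14 lower, against 55.1% of all genes, and the 15 called with it were all among them. The count was 4 without miR-1225-3p replicate 2 or 3, 7 without scrambled replicate 3, 6 without scrambled replicate 2 or 4, and 8 without any other array. The share of all genes called fell in these fits too. Without miR-1225-3p replicates 2 and 3 it was 12.4% and 13.1%, where 5.19% of members were called. In the others it was 17.3% to 27%, against 7.79% to 10.4% of members. NDUFB6, NDUFB8, ATP5PD and ATP5IF1 were called in each of the 10 fits that left out 1 array, NDUFB11 and NDUFB5 in 8, ATP5PB in 5 and COX6B2 in 4. NDUFS4, NDUFS5, CYC1, COX4I1, ATP5F1D and UQCRC1 were called in 1, the fit without miR-1225-3p replicate 5. All 15 called members had the same sign on both slides, as did 67 of all 77 members. The 15 were chosen by their call on these same arrays, so this agreement is largely built in. With the slide as a block in limma 10 members were called, 7 higher and 3 lower; COX4I1 (adjusted p = 0.0614), ATP5F1D (0.0572) and UQCRC1 (0.0534) were among the calls lost. Slide 1 held miR-1225-3p replicates 1 and 2 and scrambled replicates 1, 3 and 5. Slide 2 held the other arrays, miR-1225-3p replicate 5 among them. Within slide 1 limma called 6 members. Within slide 2 it called 0 members, 0 at an unadjusted p under 0.05. Of all genes tested, 25.9% were called within slide 1 and 0% within slide 2. Each fit rests on few arrays, and the part of replicate 5 was not tested.

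**Figure D5:**
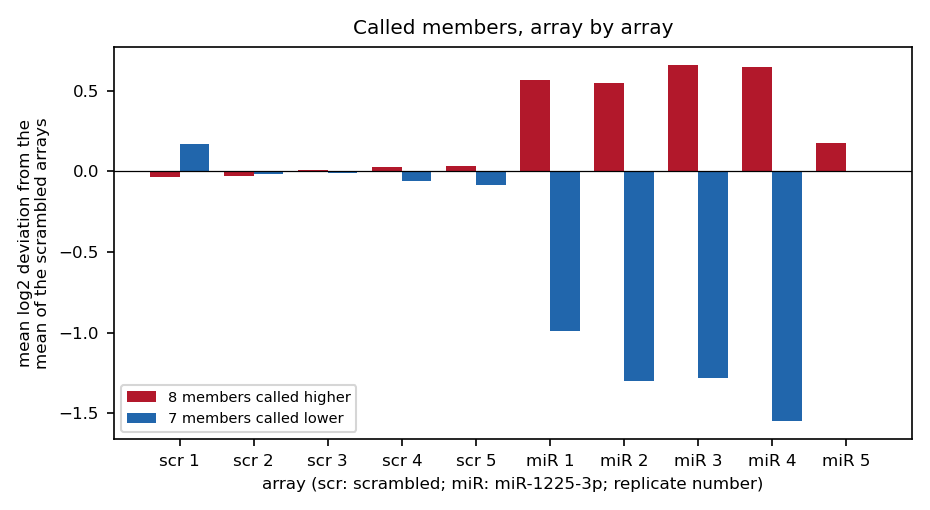
Mean deviation in log2 signal of each array from the mean of the 5 scrambled arrays, over the 8 members called higher (red) and the 7 called lower (blue). miR-1225-3p replicates 1 to 4 deviate by at least 0.549 and 0.989 in size, replicate 5 by 0.179 and -0.00493. The members were chosen by their call on these arrays, so a gap between the groups is built in.

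Other genes of the pathway were described from lists. The 4 subunits of complex II, which feeds electrons from succinate, had differences of 0.16 to 0.34 and none was called by limma, with 2 at an unadjusted p under 0.05. Without miR-1225-3p replicate 5, SDHB (0.30, adjusted p = 0.0423 by limma) and SDHC (0.39, adjusted p = 0.0263 by limma) were called higher. Of 43 tested assembly factors of the complexes, 15 were called (34.9%, as against 35% of all genes), 13 higher and 2 lower. Without replicate 5, 26 of the 43 were called, 21 higher and 5 lower, against 55.1% of all genes. The 2 factors with the largest rise were NDUFAF4 (1.32, adjusted p = 0.0136 by limma) and NDUFAF6 (0.95, adjusted p = 0.0152 by limma), both needed to build complex I. COX10, which takes part in making the heme of complex IV, had a difference of -1.35 (adjusted p = 0.0156 by limma), with signals above the background flag on 1 of 5 miR-1225-3p and 4 of 5 scrambled arrays. SCO2, a copper chaperone of the same complex, had a difference of -0.77 (adjusted p = 0.0136 by limma). All 13 higher and both lower factors kept their sign under the 4 scalings, and the counts were 26 higher and 2 lower with the 75th percentile.

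Of 16 tested regulators of mitochondrial gene expression, 3 were called higher and 3 lower (37.5%, close to the 35% of all genes). Without replicate 5 there were 4 of each, while 55.1% of all genes were called. The higher ones were TEFM (0.82, adjusted p = 0.0271 by limma) and TFB2M (0.63, adjusted p = 0.0491 by limma), both of the mitochondrial transcription machinery, and GABPB1 (0.79, adjusted p = 0.0408 by limma), the partner of GABPA. The lower ones were YY1 (-0.64, adjusted p = 0.0463 by limma), the rRNA methyltransferase TFB1M (-0.54, adjusted p = 0.0253 by limma) and the mitochondrial RNA polymerase POLRMT (-0.48, adjusted p = 0.0405 by limma). These 3 were below 0 under all 4 scalings but were called lower only after cyclic loess. NRF1, measured above background on 1 of 5 miR-1225-3p and 3 of 5 scrambled arrays, had a difference of -0.79 (adjusted p = 0.0928 by limma), and GABPA of -0.46 (adjusted p = 0.255 by limma).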

How the data were processed

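The authors deposited the scanner output of 10 single-colour Agilent arrays (Feature Extraction 10.7.3.1 per the file headers), whose processed signal is a background-subtracted intensity, together with normalized log2 values of 29271 probes. Here log2 processed signals of 58717 spots (4259 controls left out) were normalized by cyclic loess (limma 3.58.1, R 4.3.3, 3 iterations), outlier-flagged spots were dropped and repeat spots of 1 probe averaged. Kept were probes whose signal passed the background flag on 3 or more arrays of a group (20648 of 42405), and the brightest stood for its gene. Symbols came from the RefSeq gene table of GRCh38.p14, which named 24910 probes, 97 of them for members. Groups were compared with limma and Benjamini-Hochberg adjustment at 0.05, and single genes with a two-sided exact permutation test over 252 assignments. Members, lists and tests were chosen with earlier results of these data known. Named genes are, per complex, the 3 largest called rises and falls, the catalytic or electron-carrying subunits and the isoform pairs; other called members were named after their values were seen. The summary of the brightest 10% and the promoter motifs were likewise added after the data were seen. Some genes that these rules cover are not reported here. In simulated data of this comparison (17379 genes, 200 of them changed by 2 on the log2 scale) limma found 162 of the 200, with 12 false calls. The members had smaller differences (-1.61 to 0.59), and 35% of all genes were called. Recovery at such sizes and with so many called genes was not tested. Alternatives covered normalization, background correction, source of values, filters, probes, test, slide, replicate number and each array. Deviations of arrays with the same replicate number correlated at -0.402 to 0.072. The titles number the replicates but name no pairing, and so few values cannot show whether transfections were matched.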

Additional observations from a re-analysis of the deposited data

Results flagged for a closer look

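Among 50 groups of 5 arrays, 4 had 1 array far from the other 4, where chance gives about 1 in 20, or 2.5. The groups are genes read on the same 10 arrays, so they are not independent and far values on 1 array can come together. Of these, 3 were miR-1225-3p replicate 5. NDUFB5 read 11.54 there, with its nearest neighbour at 11.98. ATP5PD read 14.26 (nearest 14.62) and ATP5PB 13.31 (nearest 13.59). The other was UQCRC1 on scrambled replicate 1, at 12.44 with the nearest at 11.97. In each of the 3 genes on replicate 5 the value lay towards the scrambled arrays.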

How the results depend on the processing

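Against 15 called members and 6091 called genes, the counts were 50 members with the 75th percentile, 1 member and 1266 genes with no scaling, 7 and 3411 with no filter on dim probes, 49 and 11525 with array weights, 23 members with trend and robust eBayes, and 6 members within slide 1. Within slide 2 limma called 0 members and 0 genes (0 and 1220 at an unadjusted p under 0.05). With the replicate block in limma 0 members and 0 genes passed (16 and 7474 at an unadjusted p under 0.05). Whether the replicate numbers pair the samples is not known. Leaving out 1 array gave 4 to 35 members and 2152 to 9583 genes. The members' median of 0.0483 became 0.665 with the 75th percentile, 0.22 with quantile and 0.242 with no scaling, and moved by less than the spread of the arrays otherwise. The other settings kept the member count within 1.5 times, at 10 (slide as a block) to 21 (normexp), with 16 on the authors' values. Their split was 8 higher and 7 lower after cyclic loess, 13 and 8 with normexp, 8 and 8 on the authors' values, and 16 and 3 by the methods' t-test with Benjamini-Hochberg adjustment (19 members), which kept 11 of the 15 calls and lost, among others, CYC1 (adjusted p = 0.0528), COX4I1 (0.0669) and ATP5F1D (0.0651). The share of members called was 24.7% by that t-test (26.9% of all genes, 2642 genes higher and 2035 lower). With normexp it was 27.3% (30.3% of all genes) and on the authors' values 20.8% (39.7%). The share was 13% with the slide as a block (30.4%), 29.9% with trend and robust eBayes (36.3%) and 63.6% with array weights (66.3%). Within slide 1 it was 7.79% (25.9%), and with no filter on dim probes 8.54% (9.67%).

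Signs turned with the 75th percentile for UQCRC1 (0.0311), NDUFS1 (0.428), UQCRFS1 (0.598), ATP5F1A (0.181), COX6A1 (0.492) and COX8A (0.432). With quantile they turned for UQCRFS1 (0.0926), COX6A1 (0.0283) and COX8A (0.032), and with no scaling for NDUFS1 (0.00501), UQCRFS1 (0.176), COX6A1 (0.0693) and COX8A (0.00898). COXFA4 turned on the authors' values (-0.0167) and COX6B1 within slide 2 (-0.0341). Leaving out 1 array gave -0.0956 to 0.0223 for UQCRFS1, -0.00657 to 0.0522 for COXFA4 and -0.0666 to 0.129 for COX6B1. Apart from UQCRC1, none of these genes was called after cyclic loess. The cause was not tested. With 5 arrays per group, signal near background limits COX10, NRF1 and COXFA4L2.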
